A study of Homo sapiens with 24 samples.

Results

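The comparison set T-47D breast cancer cells that received a negative control miRNA inhibitor against the same cells that received a negative control miRNA mimic. Its members were chosen by the labels: every library of Y537S cells with either control, which gave 4 of the 24 libraries. T-47D is an ER-positive luminal breast cancer cell line, and the Y537S cells carry, next to a wildtype copy, the Y537S change in the ligand-binding domain of estrogen receptor α (ER) at the endogenous *ESR1* locus. Each genotype was represented by 2 clones, and each clone gave 1 library per oligonucleotide, so that a difference common to both clones could still be particular to these clones. All 24 libraries came from cells kept in hormone-deprived medium and collected 24 h after transfection with an oligonucleotide at 10 nM. No untransfected cells were analysed here, so each control was compared only with other transfections. The 10 Y537S libraries were the mimic control, mimics of miR-301b and miR-331, the inhibitor control and an inhibitor of let-7f, each in clones 1 and 2. The other 14 libraries came from WT ER cells with the mimic control or mimics of miR-301b, miR-331 or miR-181c, and from D538G cells with the mimic control or mimics of miR-301b or miR-181c.

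A miRNA mimic is a short double-stranded RNA that is loaded into Argonaute and directs it to partly complementary messenger RNAs. A miRNA inhibitor is a chemically modified single strand that binds a miRNA and blocks it, and negative controls of both kinds are designed to have no target. Foreign RNA can be detected by cytoplasmic sensors such as RIG-I (*DDX58*) and MDA5 (*IFIH1*), which signal through MAVS and the interferon regulatory factors to induce interferons. Secreted interferons then act through their receptors and JAK kinases, and the transcription factors activated in this way bind the interferon-stimulated response element in the promoters of antiviral genes.

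Counts assigned to genes ranged from 31379962 to 50526442 per library over the 24 libraries. The mimic control libraries held 38998579 (clone 1) and 41382707 (clone 2) counts, and the inhibitor control libraries held 50526442 and 40891956. Of 26364 genes, 15063 passed the filter on low counts and were tested with the clone as a block, and a gene was called at an adjusted p under 0.05. In all, 2517 genes were called (16.7%), of which 1336 were higher with the inhibitor control (8.87%) and 1181 were lower (7.84%). Of the 2517, 2512 moved the same way in both clones, which the paired fit itself favours. Over all 15063 genes tested, 5018 were higher and 5171 lower in both clones. Most differences were small: the median absolute log2 fold change of called genes was 0.257, and 62 genes were higher and 24 lower by at least 2-fold. The calls rested on the block, because the fit of the clones as plain duplicates called 0 genes by edgeR (1123 at an unadjusted p under 0.05) and 132 by DESeq2. An exact permutation test of 2 against 2 libraries that ignores the clones cannot give a two-sided p below 0.333. One that keeps the clone pairs has fewer arrangements still.

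The gene list with the largest share called higher was the interferon pathway. Of the 145 genes on the list, 118 were tested, 55 were called higher and 1 lower with the inhibitor control, against 8.87% higher over all genes tested. The median log2 fold change of the 118 was 0.334, and that of all genes tested was -0.003. Both inhibitor control libraries lay above all 8 other Y537S libraries for 41 of the 145 listed genes, and for 349 of the 15063 genes tested (2.32%). With the GC trend of each library removed, 56 members were called higher, 52 of them among the 55. The count was 17 by DESeq2 with the block, which gave no adjusted p for 26 of the 55, and 14 without the block, which gave none for 10. The fit of all 10 Y537S libraries called 43, and in that fit it was 16 without clone 1 of either control, 30 without clone 2 of the mimic control and 38 without clone 2 of the inhibitor control.

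**Figure D1:**
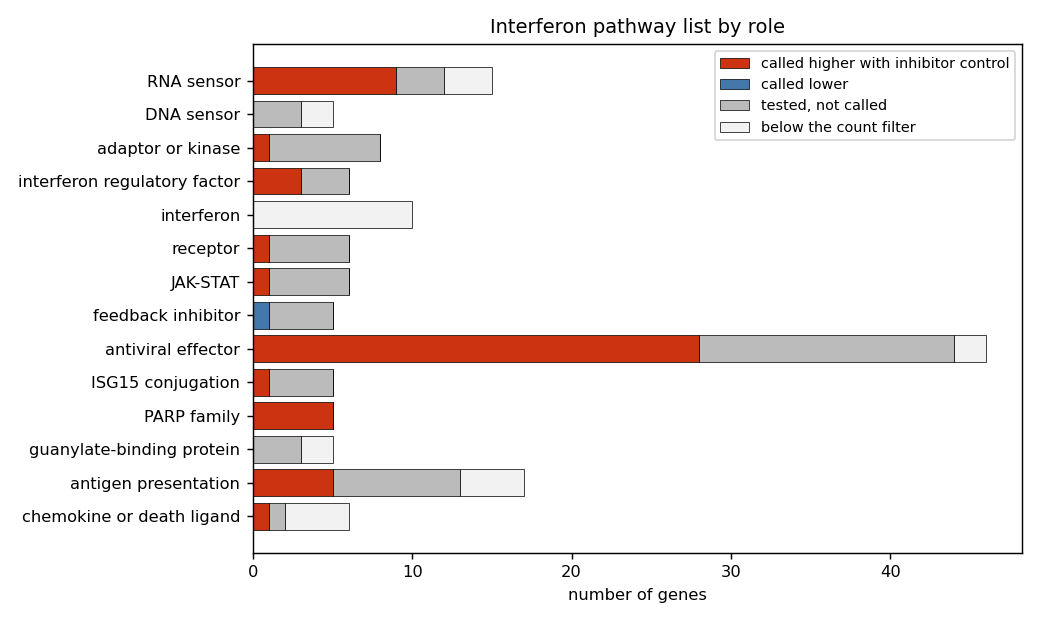
Number of genes of the interferon pathway list in each role (horizontal axis), divided into those called higher with the inhibitor control, called lower, tested and not called, and below the count filter. Calls were concentrated among the RNA sensors (9 of 12 tested), the antiviral effectors (28 of 44) and the PARP family (5 of 5), while none of the 10 interferons could be tested.

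Of the RNA sensors, 9 of 12 tested were higher. *DDX58*, which encodes RIG-I, was at 40.2 and 36.2 normalised CPM (read counts scaled to a common library size) with the mimic control in clones 1 and 2, and at 68.8 and 48.2 with the inhibitor control. The other 6 Y537S libraries lay between 30.8 and 35.8 CPM, so that both inhibitor control libraries stood above all others, by a log2 fold change of 0.59 ± 0.075 over the mimic control (SE, edgeR adjusted p = 9.0e-07). *IFIH1*, which encodes MDA5, rose by 0.47 on the log2 scale, *DHX58*, their regulator LGP2, by 0.72, and *EIF2AK2*, the kinase PKR that halts translation on double-stranded RNA, by 0.31. The 2'-5' oligoadenylate synthetases, enzymes activated by double-stranded RNA, changed more, with log2 fold changes of 2.07 for *OAS1*, 1.60 for *OAS2*, 0.56 for *OAS3* and 1.96 for *OASL*. The editing enzyme *ADAR* rose by 0.17. *TLR3*, the endosomal sensor of double-stranded RNA, was near the count filter at 0.491 to 1.55 CPM and was not called (log2 fold change 0.16), and *TLR7*, *TLR8* and *ZBP1* were below the filter. None of the 3 DNA sensors tested was called, and *MB21D1* (cGAS) had no count in any Y537S library.

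The adaptors, kinases and receptors upstream of the response gave few calls. Of 8 adaptors and kinases, *TRIM25*, a ubiquitin ligase of RIG-I, was called, with a log2 fold change of 0.15. *MAVS* had a log2 fold change of -0.08 and *TBK1* of -0.12, and neither was called. The interferon receptor subunits *IFNAR1* and *IFNAR2* had log2 fold changes of -0.01 and -0.41, not called, and of 6 receptor genes *IL10RB*, shared by the type III interferon and IL-10 receptors, rose by 0.34. *JAK1*, *JAK2* and *TYK2* lay between -0.03 and 0.05.

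Of the 6 interferon regulatory factors, 3 were called higher. *IRF9*, a transcription factor of the interferon response, was at 9.32 and 9.34 CPM with the mimic control and at 36.8 and 24.9 with the inhibitor control, and the other 6 libraries reached at most 13.3. Its log2 fold change was 1.70 ± 0.11 (adjusted p = 5.0e-13, edgeR). *IRF7*, which amplifies interferon transcription, rose by 1.36 and *IRF1* by 0.73, while *IRF3* had a value of -0.02 and was not called. *STAT2* had a log2 fold change of 0.13 and was not called. Among the feedback inhibitors, *PIAS1* fell by 0.29 and *USP18* and *SOCS1* were not called (log2 fold changes 0.24 and 1.11, the latter at under 1 CPM in the 4 libraries).

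The interferon genes themselves gave almost no reads. Of 10 interferon genes, 6 had no count in any of the 10 Y537S libraries. *IFNB1* (interferon-β) had 6 counts in clone 1 and 2 in clone 2 with the inhibitor control, 6 in clone 1 with the let-7f inhibitor and 0 in the other 7 libraries. *IFNL1* had 10 counts in clone 1 and 0 in clone 2 with the inhibitor control, and 8 and 2 with the miR-301b mimic. *IFNL3* had 8 counts in clone 1 with the inhibitor control and 0 elsewhere, and *IFNL2* had at most 4, in clone 2 with the mimic control. These counts were too few for a comparison, and low counts in these tables fell more often on even numbers, so that 2 counts may not be 2 separate fragments.

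Of 44 antiviral effectors tested, 28 rose and 0 fell. *IFIT1*, which binds foreign RNA caps, was at 7.93 and 9.15 CPM with the mimic control, at 63.4 and 26.6 with the inhibitor control and at 2.39 to 12.7 in the other 6 libraries, a log2 fold change of 2.28 ± 0.16 (adjusted p = 5.4e-12, edgeR). *MX1*, a GTPase that blocks viral replication, was at 19.99 and 30.1 CPM with the mimic control, at 144 and 70.5 with the inhibitor control and at 13.4 to 39.6 elsewhere. *IFI6* went from 10.97 and 14.7 CPM to 56.5 and 34.2, and lay between 10.1 and 22.5 in the other 6 libraries. For each of these 3 genes both inhibitor control libraries were above every other Y537S library and clone 1 was above clone 2. *ISG15*, a ubiquitin-like modifier, was low in these cells, with 58 and 52 counts in the mimic control libraries and 541 and 257 in the inhibitor control libraries, a log2 fold change of 2.59. *IFI27* (2.52), *RSAD2* (2.50), *IFI44* (2.01), *IFIT3* (1.96), *XAF1* (1.92), *HELZ2* (1.53), *IFIT2* (1.47), *SAMD9* (1.20) and *IFIT5* (1.05) were also called higher, with the log2 fold change in parentheses. *MX2* (0.05), *IFITM2* (0.04) and *SAMHD1* (0.08) were expressed and not called.

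**Figure D2:**
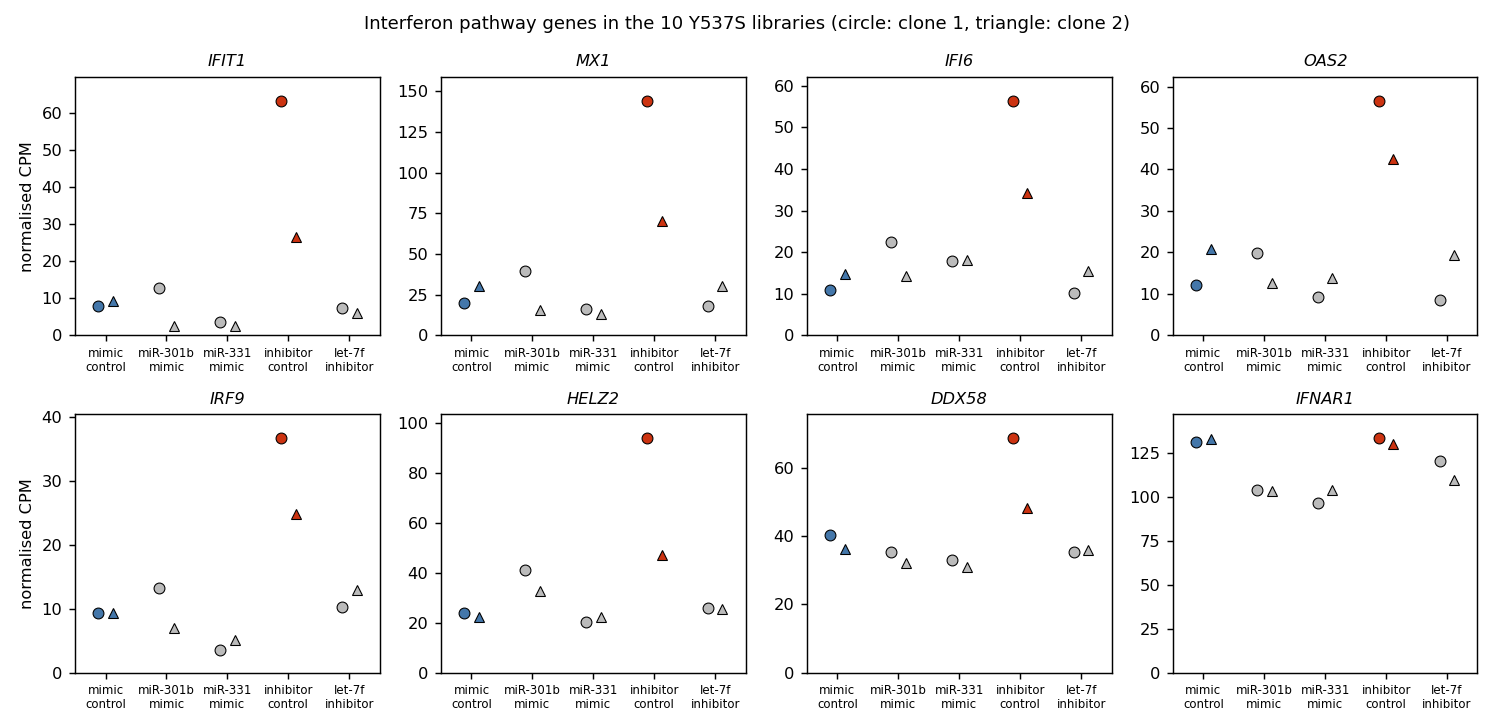
Normalised CPM (vertical axes from 0) of 8 interferon pathway genes in each of the 10 Y537S libraries, by oligonucleotide (horizontal axis), with clone 1 as circles and clone 2 as triangles. The inhibitor control libraries lie above the 8 others for IFIT1, MX1, IFI6, OAS2, IRF9, HELZ2 and DDX58, with clone 1 above clone 2, and IFNAR1 overlaps the mimic control.

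All 5 members of the PARP family group rose, by 0.55 (*PARP9*), 0.66 (*PARP10*), 0.45 (*PARP12*), 0.33 (*PARP14*) and 0.56 (*DTX3L*, the partner of PARP9) on the log2 scale. In antigen presentation, 5 of 13 tested genes were called higher. Among them were *HLA-B* (0.34) and *HLA-C* (0.28), which present peptides to T cells, *ERAP1* (0.45), which trims those peptides, and the immunoproteasome subunit *PSMB10* (0.50). *B2M* was at 217 to 234 CPM in the 4 control libraries and was not called (log2 fold change 0.05). The chemokine *CCL5* was low and rose by 1.55, with 14 and 25 counts in the mimic control and 88 and 46 in the inhibitor control libraries, and the death ligand *TNFSF10* had a value of -0.01. Guanylate-binding proteins, which respond most to type II interferon, gave no call among 3 tested. The NF-kB target list, which responds to inflammatory signals, gave 0 calls among 12 tested, with a median log2 fold change of 0.086 (edgeR; none was called by DESeq2).

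The RefSeq promoters of these genes (250 bases before to 50 after each annotated gene start, GRCh38.p14) were searched for the core of the interferon-stimulated response element, written GAAANNGAAA or TTTCNNTTTC on the printed strand, with overlapping matches counted. Of the 55 genes called higher, 44 had a promoter entry and 30 of these held a match in at least 1 window (68.2%), against 19 of 49 list members that were tested and not called higher (38.8%) and 443 of 11660 genes tested (3.8%). Among all 27305 genes with an entry the share was 4.38%. The stretches of promoter shown here are those of 5 genes whose rise was described above, each on the strand of its gene, with the matches in capitals. The coordinates refer to GRCh38.p14, whereas the counts were made on hg19.
ISG15 (chr1:1013344-1013439, + strand): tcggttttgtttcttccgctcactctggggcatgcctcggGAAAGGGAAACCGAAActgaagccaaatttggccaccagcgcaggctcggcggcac
IFI27 (chr14:94110588-94110690, + strand): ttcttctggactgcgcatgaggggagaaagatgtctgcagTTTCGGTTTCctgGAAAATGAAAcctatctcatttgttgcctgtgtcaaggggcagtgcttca
IFIT1 (chr10:89392467-89392569, + strand): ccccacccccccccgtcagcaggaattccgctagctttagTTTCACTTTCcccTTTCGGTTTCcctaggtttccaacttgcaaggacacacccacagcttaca
MX1 (chr21:41420529-41420607, + strand): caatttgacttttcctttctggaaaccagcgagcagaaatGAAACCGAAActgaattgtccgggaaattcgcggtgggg
IFI6 (chr1:27672236-27672388, - strand): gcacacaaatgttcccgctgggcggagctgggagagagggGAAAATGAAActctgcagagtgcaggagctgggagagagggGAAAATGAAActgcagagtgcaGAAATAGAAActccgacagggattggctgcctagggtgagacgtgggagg
The stretch of ISG15 holds 2 overlapping matches, those of IFI27 and IFIT1 hold 2 each, that of MX1 holds 1 and that of IFI6 holds 3. A match is a stretch of letters and was not shown to be bound.

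Most interferon pathway genes differed more in clone 1. Of the 55 genes called higher, 51 had the larger log2 difference in clone 1, whereas over all genes called higher 641 of 1336 did. *IFIT1* differed by 2.98 in clone 1 and 1.54 in clone 2 on the log2 scale, *MX1* by 2.84 and 1.23, and *SAMD9* by 1.76 and 0.67. The test of the difference between clones, fitted over all 10 Y537S libraries, called 0 of 121 interferon pathway genes, and 6 of 15705 genes in all (0.0382%). With 1 library per clone and oligonucleotide, the spread between libraries of the same clone could not be measured.

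**Figure D3:**
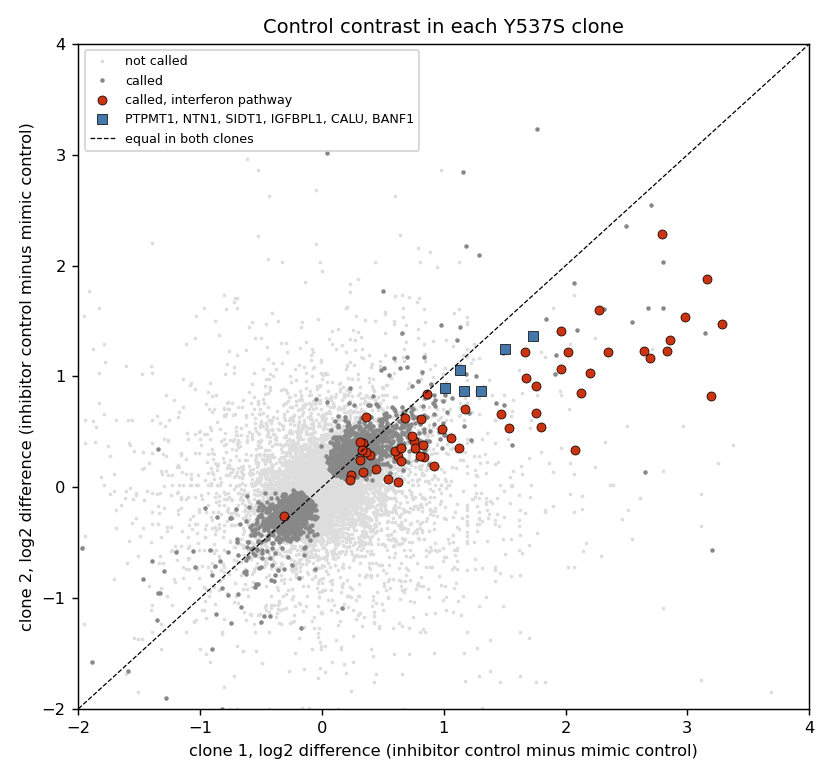
Log2 difference between inhibitor control and mimic control in clone 1 (horizontal axis) and clone 2 (vertical axis) for each gene tested, with called interferon pathway genes as red circles and 6 genes that were lowest in the mimic control as blue squares. Most red circles lie below the dashed line of equality, the blue squares lie closer to it, and 64 genes fall outside the axes.

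The summed level of the 55 genes placed the inhibitor control apart from the other oligonucleotides. It was 2008 and 2032 CPM with the mimic control (clones 1 and 2) and 3283 and 2528 with the inhibitor control. The let-7f inhibitor, the other inhibitor in the series, gave 1954 and 2044 CPM, the miR-301b mimic 2346 and 2009, and the miR-331 mimic 2198 and 2127. The genes were chosen as higher with the inhibitor control, which favours its sum over that of every other library, so these values are a description. The sum of all 145 listed genes was 4412.6 and 4495.1 CPM with the mimic control and 5821.8 and 4970.7 with the inhibitor control. It was 4312.5 and 4471.9 with the let-7f inhibitor and between 4292.1 and 4651.1 with the miR-301b and miR-331 mimics. For a comparison across genotypes the sum of the 55 genes was also taken in CPM without TMM factors. On that scale it was 2027 and 2077 with the mimic control, 3319 and 2577 with the inhibitor control, 1961 to 2435 in the other 6 Y537S libraries and 1873 to 2046 in the 14 WT and D538G libraries, none of which had an inhibitor. The miR-331 mimic lay above the mimic control with TMM factors and below it without them. The let-7f inhibitor was also set against each control, and these comparisons share their control libraries with the one above. Against the inhibitor control, the let-7f inhibitor gave 2 interferon pathway genes higher and 57 lower of 118 (6.88% of all genes were lower), with a median log2 fold change of -0.387. Against the mimic control it gave 5 higher and 7 lower of 115 (18% of all genes were called), with a median of -0.017. *IFIT1*, for example, had a log2 fold change of -2.63 in the former contrast and -0.34 in the latter.

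Other genes among the largest rises were lowest with the mimic control. *PTPMT1*, a mitochondrial phosphatase required for cardiolipin synthesis, was at 28.1 and 38.1 CPM with the mimic control and at 94.5 and 98.2 with the inhibitor control, and the other 6 Y537S libraries lay between 97.3 and 137. Its log2 fold change was 1.55 ± 0.073 (adjusted p = 7.0e-16, edgeR). *NTN1*, which encodes the guidance cue netrin-1, was at 41.1 and 36.2 CPM with the mimic control and at 118 and 85.7 with the inhibitor control. *SIDT1*, a transmembrane protein of the family that transports double-stranded RNA in worms, was at 51.2 and 84.8 against 114 and 176. *IGFBPL1* was at 6.86 and 11.3 against 17.2 and 20.8. *CALU*, the calcium-binding protein calumenin of the secretory pathway, was at 92.8 and 112 against 211 and 205, and *BANF1*, which links chromatin to the nuclear envelope, at 93.5 and 103 against 190 and 191. In all 6 genes both mimic control libraries lay below each of the 8 other Y537S libraries, mimics included. These 6 were all the genes among the 15 largest rises that were neither on the interferon list nor *RPS18*. Over all genes tested, 1041 of 15063 (6.91%) had both mimic control libraries lowest of the 10. Among the genes called higher these were 581 of 1336, a count that the selection itself raises, since it places the mimic control below the inhibitor control, and from which nothing is read. The same holds for the called interferon pathway genes, of which 7 of 55 were lowest in the mimic control and 36 highest in the inhibitor control.

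The WT and D538G libraries, which the Y537S comparison did not use, allowed the mimic control to be set against other mimics in other cells. The other mimics were of miR-301b, miR-331 and miR-181c in WT cells and of miR-301b and miR-181c in D538G cells. This contrast also holds the effects of those miRNAs, which cannot be told apart from an effect of the mimic control. In WT cells, *PTPMT1* was at 40.5 and 42.2 CPM with the mimic control and at 89.1 to 104 in the 6 libraries with other mimics, and the mean of the other mimics was higher by 1.24 ± 0.069 on the log2 scale (adjusted p = 6.4e-09, edgeR). In D538G cells it was at 56.6 and 49.2 CPM with the mimic control and at 98.8 to 109 in the 4 libraries with other mimics, a log2 fold change of 0.98 ± 0.064 (adjusted p = 1.4e-10, edgeR). All 6 genes passed the test in both genotypes, with log2 fold changes in WT and D538G cells of 1.06 and 0.98 for *NTN1*, 0.92 and 0.93 for *SIDT1*, 1.07 and 1.16 for *IGFBPL1*, 1.01 and 0.72 for *CALU*, and 0.93 and 0.71 for *BANF1*. The mimic control libraries lay below all other libraries of their genotype in each case. Of the antiviral genes, *IFIT1* had log2 fold changes of -0.39 and -0.12 and *MX1* of -0.14 and -0.05, none called.

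**Figure D4:**
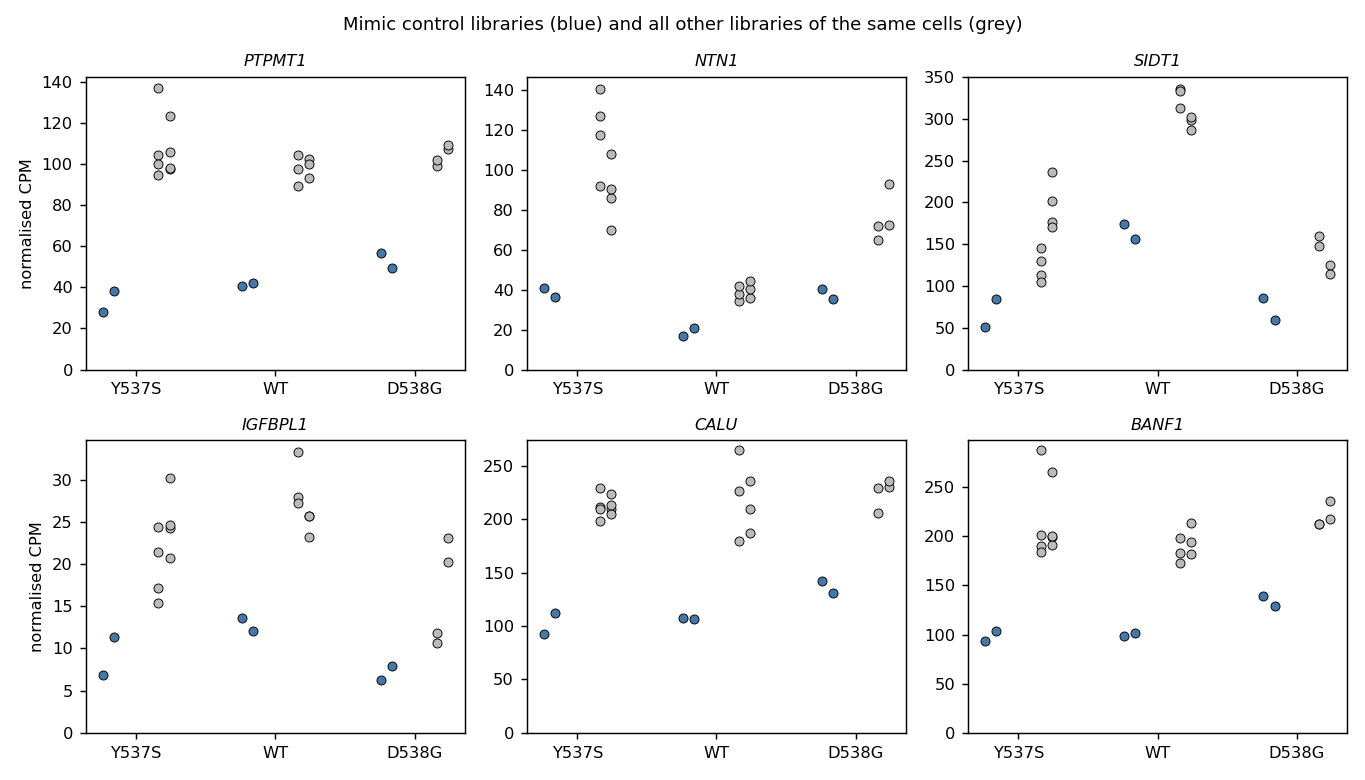
Normalised CPM (vertical axes from 0) of 6 genes in the mimic control libraries (blue, 2 per genotype) and in all other libraries of the same cells (grey, 8 in Y537S, 6 in WT and 4 in D538G). Normalisation was within each genotype, so levels compare within a genotype, and in every panel and genotype the blue points lie below all grey points.

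The overlap extended beyond these 6 genes. Of the 1281 genes called higher in Y537S that were not on the interferon list, 1277 were tested in WT cells, and 838 of them (65.6%) were called higher with the other mimics than with the mimic control, 15 lower. Over all genes tested in WT cells, 17% were called higher, and the 838 made up 31.7% of the WT genes called higher. In D538G cells the corresponding values were 829 of 1275 (65%), 63 in the opposite direction, 18.1% of all genes and 30.2% of the D538G list. Of the interferon pathway genes called higher in Y537S, 9 of 54 (16.7%) were higher in WT cells and 7 of 51 (13.7%) in D538G cells, against the same 17% and 18.1% of all genes. Of the genes called lower in Y537S, 612 of 1179 (51.9%) were lower in WT cells, where 13.5% of all genes were lower, and 721 of 1178 (61.2%) in D538G cells, where 18.4% were. The differences also moved with GC content, and its part in the overlap was not tested beyond the values given here. The median log2 fold change from the lowest to the highest of 5 equal bins of genes by GC went from -0.063 to 0.129 in Y537S, from -0.186 to 0.344 in WT and from -0.217 to 0.305 in D538G cells. With the GC trend removed from every library in both comparisons, 571 of 1224 genes (46.7%) were called higher in WT cells, against 8.18% of all genes, and 476 of 1222 (39%) in D538G cells, against 8.67%. Of the genes called lower, 221 of 1006 (22%) were lower in WT cells, against 4.63% of all genes, and 319 of 1005 (31.7%) in D538G cells, against 7.64%. All 6 genes named above were still called, *PTPMT1* with 1.28 in WT and 1.00 in D538G cells.

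The genes that fell with the inhibitor control changed less. Among well expressed genes the largest fall was that of *STRADB*, a pseudokinase partner of LKB1, at 19.6 and 14.6 CPM with the mimic control and 10.8 and 6.60 with the inhibitor control, a log2 fold change of -0.999 ± 0.12 (adjusted p = 1.9e-07, edgeR). The let-7f inhibitor gave 9.55 and 8.35 CPM and the miR-331 mimic 11.2 and 9.95, and the miR-301b mimic overlapped the mimic control at 24.5 and 14.7. *TET1*, which oxidises methylcytosine, fell by 0.90, *SCML2*, a Polycomb protein, by 0.87 and *CDK6*, a G1 cyclin-dependent kinase, by 0.61. The long noncoding RNA *MALAT1* was at 8810 and 11679 CPM with the mimic control and at 4282 and 7795 with the inhibitor control, but varied widely with other oligonucleotides, down to 888 and 1104 with the miR-331 mimic. *STC1*, a secreted glycoprotein, fell by 0.58 and the zinc finger gene *ZNF883* by 0.59. *ANKRD36*, *ANKRD36C*, *NPIPB5* and *NOMO3* also fell, but *ANKRD36* was not called in the fit of all 10 Y537S libraries. Each has near-identical copies, so that their counts are uncertain. So are those of *RPS18*, which had 29 counts in clone 1 of the mimic control and 2718 in clone 2.

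The miRNA machinery list held 8 genes that fell and 2 that rose of 21 tested (38.1% and 9.52%, against 7.84% lower and 8.87% higher over all genes tested). *DICER1*, which cleaves miRNA precursors, was at 302 and 301 CPM with the mimic control and at 217 and 193 with the inhibitor control, a log2 fold change of -0.57 ± 0.041 (adjusted p = 1.0e-11, edgeR). It was lower still with the miR-301b mimic, at 120 and 131 CPM, and highest with the let-7f inhibitor, at 376 and 304. In WT and D538G cells *DICER1* was lower with the mean of the other mimics than with the mimic control, by 0.61 and 0.89 on the log2 scale. That mean included the miR-301b mimic in both genotypes, and its part in the fall was not tested. *TNRC6B* and *TNRC6A*, the scaffold proteins that recruit deadenylases to Argonaute, fell by 0.55 and 0.36. *LIN28A*, which blocks let-7 maturation, rose by 0.70, from 27.6 and 46.0 CPM to 47.5 and 71.4, and reached 102 and 120 with the let-7f inhibitor. Of 28 let-7 targets tested, 2 were higher (7.14%) and 8 lower (28.6%) with the inhibitor control, with *NRAS* at 0.61, *PLAGL2* at -0.43 and *HMGA1* at -0.35. Leaving out 1 library in the fit of all 10 gave 2 or 3 miRNA machinery genes and 2 to 4 let-7 targets lower.

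Cell cycle genes were lower with the inhibitor control than with the mimic control. Of 54 G2/M phase genes, 29 fell and 2 rose, and of 42 S phase genes 15 fell and 0 rose, against 7.84% lower over all genes tested. The median log2 fold changes were -0.168 and -0.147. The G2/M list summed to 14420 and 12971 CPM with the mimic control and 12695 and 11562 with the inhibitor control. In the remaining Y537S libraries it lay between 11117 and 12594, so that both mimic control libraries were highest. The S phase list summed to 5088.6 and 4859.5 CPM with the mimic control, 4710.6 and 4512.9 with the inhibitor control and 4182.4 to 5145.4 in the remaining libraries. *CENPE*, a kinesin of the kinetochore, was at 160 and 171 CPM with the mimic control and 127 and 124 with the inhibitor control, a log2 fold change of -0.41. *CENPF* and *ANLN*, the scaffold of the cleavage furrow, fell by 0.34 each and *SMC4*, a condensin subunit, by 0.28, and among S phase genes *NASP* fell by 0.28, *DTL* by 0.25, *ATAD2* by 0.21 and *RRM2*, the small subunit of ribonucleotide reductase, by 0.19. The let-7f inhibitor was set against the same mimic control libraries and hence not independently. It gave 24 G2/M genes lower and 2 higher, and 10 S phase genes lower and 1 higher. In that contrast 18% of all genes tested were called, in either direction. The other mimics carry active miRNAs, and the paper reports that the miR-301b mimic stopped proliferation of D538G cells and the miR-181c mimic lowered it. For WT cells it reports lower proliferation with the miR-181c and miR-331 mimics and negligible effects with the miR-301b mimic. Any part of these mimics in the counts that follow cannot be told apart from one of the mimic control. With other mimics against the mimic control, 37 of 54 G2/M genes were lower and 1 higher in D538G cells, where 18.4% of all genes were lower. In WT cells 15 were lower and 2 higher, where 13.5% of all genes were lower. Of 42 S phase genes, 25 were lower and 2 higher in D538G cells, and 9 lower and 3 higher in WT cells. With the GC trend removed these counts shrank, to 18 G2/M and 5 S phase genes lower in D538G cells, where 7.64% of all genes were lower. In WT cells they became 1 lower and 3 higher for G2/M, and 2 lower and 10 higher for S phase, where 4.63% of all genes were lower and 8.18% higher, so that the balance of calls turned. In Y537S cells 23 G2/M and 11 S phase genes were lower with that trend removed, where 1008 of 15063 genes tested were lower. In the fit of all 10 Y537S libraries, leaving out any 1 of the 4 gave 1 to 5 G2/M and 0 S phase genes lower, and DESeq2 with the block gave 8 S phase genes lower.

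**Figure D5:**
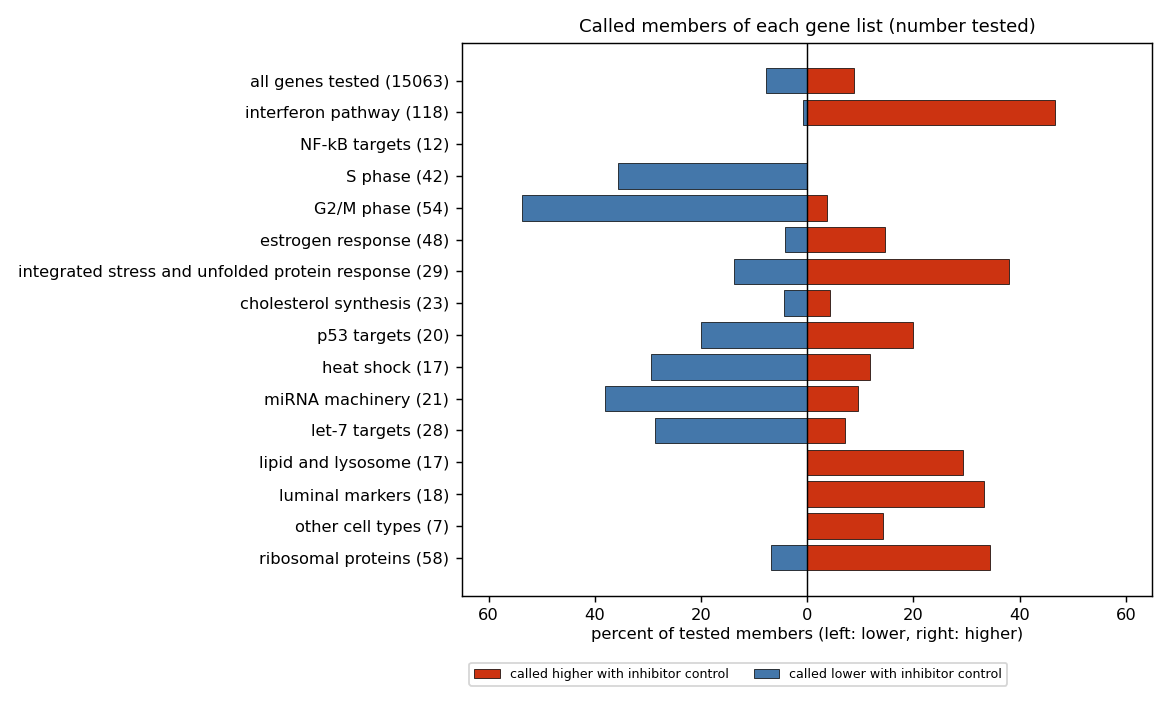
Percent of tested members of each gene list called higher (right, red) or lower (left, blue) with the inhibitor control, with the number tested in parentheses. The interferon pathway extends furthest to the right at 46.6%, against 8.87% for all genes tested. Furthest to the left are the G2/M phase (53.7%), miRNA machinery (38.1%) and S phase (35.7%) lists, against 7.84% for all genes tested.

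Genes of the integrated stress and unfolded protein response were called in both directions, 11 higher (37.9%) and 4 lower (13.8%) of 29, against 8.87% and 7.84% of all genes tested. The 4 lower calls were 2 with DESeq2, 1 in the fit of all 10 libraries and 0 when any 1 library was left out, and the 11 higher calls were 5, 8 and 3 to 4. The leading members were *SEL1L*, a component of endoplasmic reticulum-associated degradation, at 261 and 327 CPM with the mimic control and 417 and 481 with the inhibitor control (log2 fold change 0.61), and the disulfide isomerase *PDIA4* (0.62). *DDIT4*, an inhibitor of mTORC1, rose by 0.57, and *SLC3A2*, a subunit of amino acid transporters, by 0.20. *SEL1L* also rose with the other mimics in WT and D538G cells, by 0.36 and 0.32. Ribosomal protein genes were higher in 20 (34.5%) and lower in 4 (6.9%) of 58, led by *RPS29* (0.50), *RPS19* (0.46), *RPS21* (0.41) and *RPS12* (0.37), and 7 to 11 were higher and 0 lower when 1 library was left out. The heat shock list gave 2 higher (11.8%) and 5 lower (29.4%) of 17, with *HSP90AA1* at 0.26, *CHORDC1* at -0.42, *HSPA4L* at -0.37 and *HSPD1* at -0.18. It gave 1 higher and 3 lower in the fit of all 10 libraries, and 2 and 5 by DESeq2 with the block. The lipid and lysosome list gave 5 higher (29.4%) and 0 lower of 17, and 2 higher in the fit of all 10 libraries. The p53 target list was split, with 4 higher and 4 lower of 20, which became 1 and 2 in the fit of all 10 libraries and with DESeq2. *CDKN1A* stood at 0.37 and *BAX* at 0.34 against *MDM2* at -0.30 and *FAS* at -0.38. Cholesterol synthesis gave 1 call in each direction of 23 (4.35%), below the share of all genes, with *PMVK* at 0.40 and *CYP51A1* at -0.15. Neither *BAX* nor *CYP51A1* was called with the GC trend removed, by DESeq2, in the fit of all 10 libraries or with any 1 library left out.

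Among estrogen response genes, 7 of 48 were higher (14.6%, against 8.87% of all genes tested) and 2 lower (4.17%, against 7.84%), with *UGCG* (0.44), *TFF3* (0.51) and *NRIP1* (0.30) higher and *CA12* (-0.28) lower. With the GC trend removed 7 were higher and 4 lower, and in the fit of all 10 libraries 5 and 2. *ESR1* itself was at 252 and 168 CPM with the mimic control and at 289 and 163 with the inhibitor control, and was not called (log2 fold change 0.07 ± 0.045, edgeR adjusted p = 0.30), although it was called with the GC trend removed. Of the genes the study follows as miRNA-altered, *PIK3CB* fell by 0.26, *KIF14* by 0.24 and *PLAGL2* by 0.43, and *CDK1* (-0.08), *PRKD3* (0.04) and *TUSC2* (-0.15) were not called. *PLAGL2* was at 105 and 96.3 CPM with the mimic control, 74.7 and 75.3 with the inhibitor control and 126 and 109 with the let-7f inhibitor, so that its log2 fold change with the let-7f inhibitor was 0.66 against the inhibitor control and 0.23 against the mimic control. For *TUSC2* the corresponding values were 0.61 and 0.46.

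Luminal markers were expressed with both controls. All 18 were tested, and 6 were called higher (33.3%, against 8.87% of all genes tested) and 0 lower, which became 5 higher and 2 lower with the GC trend removed and 0 to 2 higher with 1 library left out. They included *KRT7* (0.38), *KRT18* (0.22), *SPDEF* (0.20, not called with the GC trend removed) and *AGR2* (0.18), and the summed level of the 18 was 14596 and 14827 CPM with the mimic control and 15489 and 15688 with the inhibitor control. Of 19 markers of basal, fibroblast, endothelial and immune cells 7 passed the count filter, and the 19 summed to 63.2 to 73.4 CPM in the 4 libraries. *LUM* was called among them, at 26 to 136 counts per library (log2 fold change 1.01). It was not called in the fit of all 10 libraries or with any 1 library left out, and DESeq2 gave it no adjusted p.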

How the data were processed

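RNA was collected from transfected T-47D cells, and libraries were made with a stranded, poly-A selecting kit. Per the labels and the study's methods, the authors aligned reads to hg19 with HISAT2 and SAMtools and assigned them to UCSC Known Genes with featureCounts of Subread, and they deposited the raw counts, 1 table per genotype. The versions, strand setting and treatment of multiply mapped reads are not given in the sources used here, so antisense and near-identical genes cannot be separated. In all 24 libraries more genes had 2 counts than 1, and 57.0% to 62.9% of counts from 1 to 20 were even. Read pairs counted as 2 would give such a pattern, which was not tested, and the totals may then overstate the number of independent fragments.

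Counts were tested with edgeR 4.0.16 in R 4.3.3: TMM normalisation, the default low count filter, a quasi-likelihood F test with the clone as a block (1 residual degree of freedom, 29.1 prior), and Benjamini-Hochberg adjustment over all genes tested. The log2 fold change is the inhibitor control minus the mimic control, and its SE was derived from it and F. The labels place both controls in the same 2 clones, and the clone differences across genes of the mimic and inhibitor control correlated at 0.582. Levels are CPM with TMM factors over the libraries of a genotype, unless said to be without them. The script was tested on simulated data. Alternatives were DESeq2 1.42.0, RLE size factors, no filter, no block, all 10 Y537S libraries in 1 fit, removal of the GC trend (lowess, span 0.3) and leaving out each library. In WT and D538G cells the mean of the other mimics was tested against the mimic control with the clone of the column heading as a block, a comparison added after the data were seen.

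Genes named in the text are called genes that moved alike in both clones and averaged 3 log2 CPM or more (15 with the strongest rise, 15 with the strongest fall), up to 4 called members of each list with the smallest p, interferon pathway members by role, and genes the study names. The members, lists and questions were chosen with earlier results of these data known. The labels of some libraries write the mutation with other digits, and the titles were followed. The sequences of the control oligonucleotides were not used here. Replicates are clones. With the clone as a block, p-values set the mean difference between oligonucleotides against how far that difference varied across 2 clones. This spread was moderated by a spread shared across genes, which held most of the weight (29.1 prior against 1 residual degree of freedom). The p-values do not measure the difference in level between the clones. A few genes that the rule names are not reported here.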

Additional observations from a re-analysis of the deposited data

Results flagged for a closer look

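The test of a difference in the control contrast between the clones called 6 of 15705 genes by edgeR, and these genes were named after their values were seen. On the log2 scale, clone 2 minus clone 1, the difference was -6.467 for *RPS18*, -0.974 for *RPL41*, -0.844 for *RPL39*, 2.47 for the ribosomal RNA precursor *RNA45S5*, 1.679 for *CCZ1B* and 1.137 for *SDAD1*. *RPS18* had 29 counts in clone 1 of the mimic control and 1493 to 7809 in the other 9 Y537S libraries. Ribosomal protein genes have many processed copies and *CCZ1B* has a near-identical copy, and whether the counting of shared reads had a part in these values was not tested.

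Some Y537S libraries outside the comparison had a summed level of the 55 interferon pathway genes above the higher mimic control library, which was at 2032.4 CPM. These were the miR-301b mimic in clone 1 at 2345.9 CPM, the miR-331 mimic at 2197.6 and 2127.4 CPM in clones 1 and 2, and the let-7f inhibitor in clone 2 at 2043.7 CPM. All 4 lay below the inhibitor control libraries at 3282.9 and 2527.8 CPM. This list depended on the scaling. In CPM without TMM factors the miR-331 mimic was at 1961 and 1990, below both mimic control libraries at 2027 and 2077, and the miR-301b mimic lay above them in clone 1 at 2435 and clone 2 at 2104, as did the let-7f inhibitor in clone 2 at 2087.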

How the results depend on the processing

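With no replicate block 0 genes were called, and 0 in the interferon, S phase, G2/M and other lists, against 2517 called with the block. DESeq2 with no replicate block called 132 genes (114 higher, 18 lower, 86.4% higher), 14 interferon genes higher, 11 members of other lists, 0 S phase and 1 G2/M genes lower, and DESeq2 with the block called 1105 (585 higher, 520 lower), 17 interferon genes higher and 8 S phase genes lower, with no adjusted p for 297 of the 2517. The fit of all 10 Y537S libraries called 1142 (700 higher, 442 lower), 43 of the 55 interferon genes, 85 members of other lists and 8 S phase genes. Leaving out 1 library in that fit, with the lone library assumed to vary like the others, gave 240 to 378 calls (185 to 290 higher, 55 to 88 lower, 76.7% to 82.1% higher), 16 to 38 interferon genes, 25 to 30 members of other lists, 0 S phase and 1 to 5 G2/M genes. Across them *ESR1* ranged from -0.02 to 0.166 and *PRKD3* from -0.002 to 0.082, negative without inhibitor control replicate 1 and without mimic control replicate 2, and neither was called. RLE size factors (2412 called), no low count filter (2403) and removal of the GC trend (2293, of which 1686 were among the 2517) kept the counts of all genes and of the interferon, S phase and G2/M genes within 1.5 times, and GC removal gave 5 p53 targets called against 8. In WT cells 1274 genes were called higher with the GC trend removed, against 2644. In D538G cells 1312 were with the trend removed and 1252 with no replicate block, against 2745. The cause of these differences was not tested.

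Each clone gave 1 library per oligonucleotide, which leaves 1 residual degree of freedom, and the calls lean on a spread shared across genes. A gene near the count filter, such as *TLR3*, could not be resolved at this depth.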
